A study of Mus musculus with 95 samples.

Results

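The mitosis genes described here are 40 genes listed by symbol and matched exactly in the symbol column of the deposited count table. All 40 were found among its 53465 gene entries. The rule uses no measured value, but the members were chosen with earlier results of these data known. They fall into 6 roles: 10 genes of mitotic entry (the cyclins Ccnb1, Ccnb2 and Ccna2, the kinases Cdk1, Plk1 and Aurka, and Cks2, Cdca3, Mki67 and Top2a), 6 of the spindle checkpoint and the anaphase promoting complex (Bub1, Bub1b, Mad2l1, Ttk, Cdc20, Ube2c), 7 of the kinetochore and centromere (Cenpa, Cenpe, Cenpf, Ndc80, Nuf2, Spc24, Spc25), 4 of the chromosomal passenger complex (Aurkb, Birc5, Incenp, Cdca8), 7 of the spindle and its motors (Tpx2, Kif11, Kif22, Kif2c, Kif4, Nusap1, Hmmr) and 6 of cytokinesis (Prc1, Kif20a, Kif23, Racgap1, Ect2, Anln). The study sequenced RNA from 3 mouse bone marrow populations, haematopoietic stem cells (HSC) and 2 kinds of haematopoietic progenitor (HPC-1, HPC-2). Samples were taken from untreated mice and, after a transplant, at 8 times: weeks 3, 4, 5 and 6, then weeks 8 and 10, and last weeks 13 and 16. All libraries carry the strain label B6.SJL and a mouse age of 8 to 12 weeks. The untreated mice give the steady-state groups. The transplanted groups came from recipients that had been lethally irradiated with 900 cGy and had received 8000 LSK cells, which are lineage-negative cells with cKit and Sca-1 on the surface and contain stem cells and early progenitors. Whether the strain label describes the donor or the recipient is not given in the sources used here, nor whether libraries of 1 group came from separate mice, so p-values below measure only the spread between these libraries. HSC and HPC-1 have 32 libraries each (8 at steady state and 3 at every week), and HPC-2 has 31 (7 at steady state and 3 at every week). Weeks 3 and 4 are called early below (6 libraries a population), weeks 5, 6 and 8 the middle weeks (9 libraries), and weeks 10, 13 and 16 late (9 libraries).

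Cells enter mitosis when cyclin B bound to Cdk1 becomes active, and they leave it when the anaphase promoting complex, with its activator Cdc20, marks cyclin B and securin for destruction. Kinetochores tie chromosomes to spindle microtubules, the spindle checkpoint holds Cdc20 back until every kinetochore is attached, and the passenger complex, the central spindle and a contractile ring then divide the cell. Transcripts of these genes accumulate in the G2 and M phases and are low in resting cells. HSC in adult marrow are mostly quiescent, while progenitors divide more often. In bulk samples a smaller number of dividing cells and less RNA per dividing cell cannot be told apart.

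Many mitosis genes carry the cell cycle genes homology region (CHR), the letters TTTGAA close to the start of transcription, which DREAM and the B-Myb and MuvB complexes bind, and CCAAT boxes, which NF-Y binds. RefSeq promoters (build GRCm38.p6, 250 bases before to 50 bases after the start) were held for 34 of the 40 genes; Aurkb, Ccna2, Incenp, Kif20a, Spc24 and Tpx2 are named only. Searched on both strands, TTTGAA was present in 26 of these 34 windows (76.5%), against 18.1% of all 27025 promoter windows, and within 100 bases before to 50 bases after the start in 25 of 34 (73.5%) against 8.08%. The letters CCAAT were present in 27 of 34 (79.4%), against 37.9% of all windows. Both motifs occurred together in 23 of 34 (67.6%), against 7.12% of all windows; where the motifs abut, 1 letter can belong to both. The 150 bases before the start are printed for 4 members with a CHR close before the start and for Cks2, with CHR and CCAAT matches of either strand in capitals: Cdc20 (chr4:118437344-118437493, minus strand), Cdk1 (chr10:69352913-69353062, minus strand), Top2a (chr11:99024190-99024339, minus strand), Kif11 (chr19:37376232-37376381, plus strand) and Cks2 (chr13:51645082-51645231, plus strand). Cks2 is shown because it is the member whose levels followed the others least in HSC and HPC-1. It also lacks TTTGAA, as do members that followed the others more closely, and a link was not tested.
Cdc20: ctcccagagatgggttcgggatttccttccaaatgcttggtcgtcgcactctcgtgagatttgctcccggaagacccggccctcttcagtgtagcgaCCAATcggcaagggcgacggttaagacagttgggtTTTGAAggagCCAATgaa
Cdk1: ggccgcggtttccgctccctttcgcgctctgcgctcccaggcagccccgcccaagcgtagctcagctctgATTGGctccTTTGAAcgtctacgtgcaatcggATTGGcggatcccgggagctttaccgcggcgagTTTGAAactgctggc
Top2a: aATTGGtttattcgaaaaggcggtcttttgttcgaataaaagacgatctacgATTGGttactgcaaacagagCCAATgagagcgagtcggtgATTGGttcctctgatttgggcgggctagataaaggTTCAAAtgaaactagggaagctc
Kif11: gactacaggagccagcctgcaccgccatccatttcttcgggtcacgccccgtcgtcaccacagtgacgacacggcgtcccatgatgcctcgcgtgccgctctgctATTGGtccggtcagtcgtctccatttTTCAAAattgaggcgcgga
Cks2: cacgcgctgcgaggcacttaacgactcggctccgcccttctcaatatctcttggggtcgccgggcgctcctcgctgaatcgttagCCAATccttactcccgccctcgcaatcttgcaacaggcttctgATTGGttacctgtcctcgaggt
The capitals TTTGAA, or TTCAAA where the match is on the other strand, mark the CHR, and CCAAT or ATTGG the CCAAT box. Cdc20 has a CHR whose first base is 18 bases before the start, with CCAAT boxes on either side. Cdk1 has a pair of CHR matches, 71 and 15 bases before the start. In Top2a, 1 of its CHR matches lies 23 bases and the other 179 bases before the start, the latter outside the stretch printed. Kif11 has 1 CHR, 19 bases before the start, and 1 CCAAT box. Besides Cks2, the windows of Birc5, Bub1, Ccnb1, Cenpe, Mad2l1, Nuf2 and Nusap1 hold no TTTGAA. These matches describe letters in a window and were not tested for binding.

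**Figure D1:**
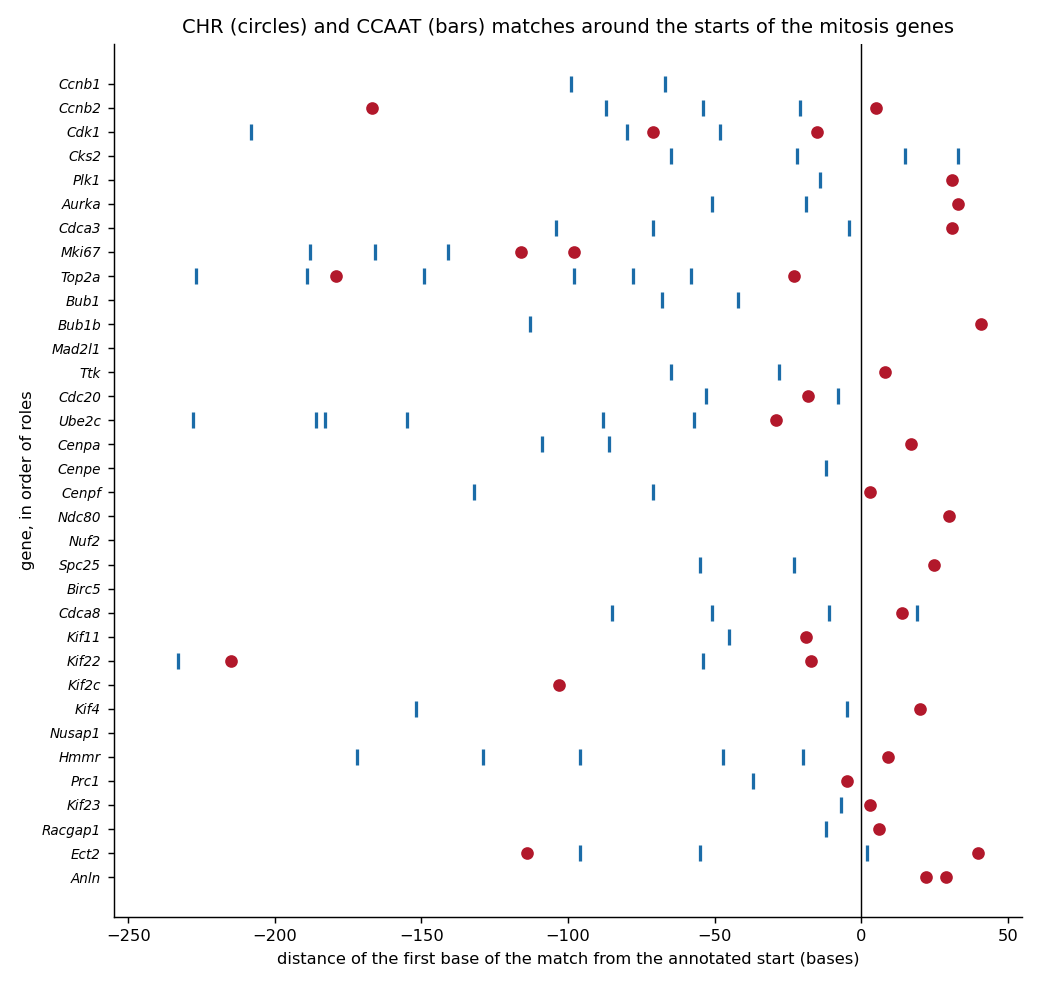
Positions of TTTGAA matches (circles) and CCAAT matches (bars) in the RefSeq promoter windows of the 34 mitosis genes that have one, one row per gene in order of roles; the horizontal axis is the distance in bases of a match's first base from the annotated start (vertical line). CHR matches gather near the start, within 100 bases before to 50 bases after it in 25 of the 34 genes.

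Depth lay between 3551908 and 8492759 counts per library (median 5628592), and 3827 to 15697 gene entries had a count (median 12943). Levels are given below as CPM, counts scaled to a common library total, and 12 libraries with fewer than 10000 detected entries, called few-gene libraries, stand apart: 5 of HSC (steady state replicates 1, 3 and 8, 13 weeks replicate 2 and 16 weeks replicate 3) and 7 of HPC-2 (steady state replicates 1, 3, 4 and 6, 13 weeks replicate 1 and 16 weeks replicates 1 and 2). Separately, 6 pairs of libraries under different group labels had near-identical counts, with a chi-square per degree of freedom of 1.24 to 4.50, the next pair being at 15.1. The untreated HSC replicate 1 matched HPC-2 replicate 1 of week 13. Untreated HPC-2 libraries matched HPC-1 ones in a pair of cases, replicate 7 the untreated HPC-1 replicate 7, and replicate 5 the week 13 replicate 2. HPC-2 replicate 1 of week 4 matched HPC-2 replicate 2 of week 5, and HPC-2 replicate 2 of week 8 matched HPC-1 replicate 1 of week 5. In HPC-1, replicate 3 of week 8 matched replicate 3 of week 10. Of the transplanted HSC libraries, 3, all at 3 weeks, had profiles nearer to HPC-2 than to other HSC. Untreated HSC libraries were not sorted by this rule. The labels write one and the same surface gate, CD48- and CD150+, for all 3 populations. The mean level of Cd48, which encodes CD48, was 14.8 to 40.6 CPM over the HSC periods, 871 to 1118 CPM over those of HPC-1 and 292 to 611 CPM over those of HPC-2. Slamf1, which encodes CD150, had means of 68.4 to 123 CPM in HSC, 0.630 to 4.48 in HPC-1 and 26.7 to 80.9 in HPC-2. The labels also give a running number. Each run of 12 consecutive numbers, called a numbering set here, held the 3 libraries of every population from 1 week and at most 1 steady-state library of each population, so week and numbering set cannot be told apart among transplanted libraries.

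All 40 genes had at least 1 count in 52 of the 95 libraries, 13 of them HSC, 21 HPC-1 and 18 HPC-2. The fewest genes with a count in a library was 10, and among libraries with 10000 or more detected entries it was 23. Per kilobase of exon, the highest mean levels over all libraries were those of Cks2 (464 CPM per kb), Ccnb2 (261), Ube2c (131), Birc5 (109) and Spc25 (93.8), and the lowest was that of the long gene Cenpf (2.84). Exons of 11 members overlap those of another gene, Plk1, Top2a, Cdc20, Ube2c, Cdca8 and Kif22 among them, and Ccnb1, Ccnb2, Kif22 and Kif4 have a named pseudogene. Whether counting used strand is not given in the sources used here, so reads of such neighbours could enter these members' values.

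**Figure D2:**
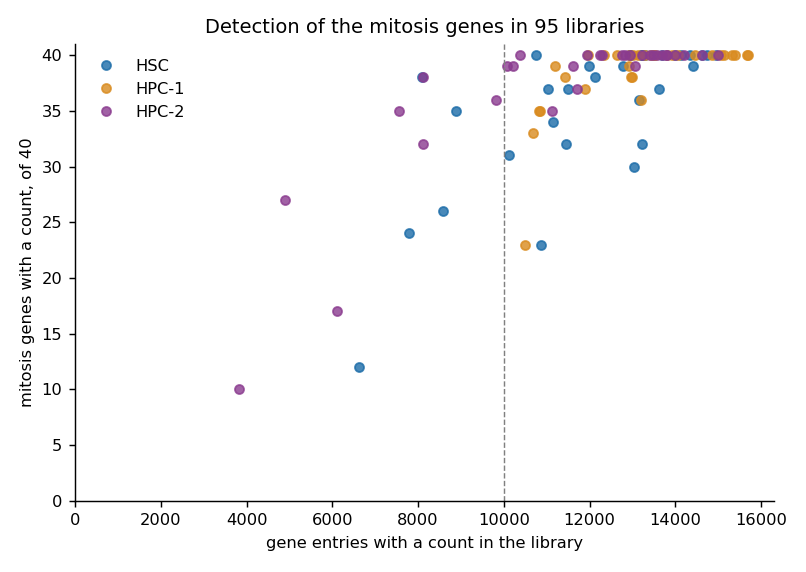
Number of the 40 mitosis genes with at least 1 count (vertical axis) against the number of gene entries with a count (horizontal axis) in each of the 95 libraries, coloured by population. The lowest numbers of members, down to 10, lie left of the dashed line at 10000 entries, and libraries right of it go down to 23.

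Summed over the 40 genes, HSC were low at steady state and late and higher early, whereas HPC-2 was highest late. The HSC sum had a median of 2907 CPM (1326 to 11843) at steady state, 7671 (3913 to 8606) early, 3948 (1747 to 6278) in the middle weeks and 3680 (1935 to 5539) late. In HPC-1 it was 4888 CPM (2616 to 8316), 6115 (3341 to 7469), 5033 (1643 to 7901) and 5712 (3840 to 6651) in the same order. The HPC-2 sum was 5763 CPM (3463 to 8436), 8366 (7311 to 10066), 7812 (4144 to 10796) and 9523 (6558 to 15424). The late ranges of HSC and HPC-2 did not overlap, and those of HSC and HPC-1 did. The highest HSC steady-state value, 11843 CPM, belongs to replicate 1, a few-gene library that is near-identical to an HPC-2 library. With it the steady-state HSC mean was 4304 ± 3534 CPM (SD, n = 8), and without it 3227 ± 1935 CPM (SD, n = 7). The late means were 3689 ± 1178 CPM in HSC and 10214 ± 2846 CPM in HPC-2 (SD, n = 9 each).

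Within the numbering sets HPC-2 lay above the other populations after transplant, but not always at steady state. The mean sum of the week's 3 HPC-2 libraries was above that of the 3 HSC libraries in 8 of 8 sets, and above that of the 3 HPC-1 libraries in 8 of 8. HPC-1 was above HSC in 6 of 8 sets, the exceptions being weeks 3 and 4. Among the single untreated libraries of each set, HPC-2 was above HSC in 6 of 7 sets and above HPC-1 in 4 of 7, and HPC-1 was above HSC in 6 of 8. From the first set to the last, the single steady-state HSC library of each set had sums of 11843, 7349, 3381, 2553, 2165, 3055, 1326 and 2759 CPM. The means of the HSC libraries of the 8 weeks, from week 3 to week 16, in those same sets were 6363, 7862, 4117, 5555, 2334, 4470, 2733 and 3863 CPM. Untreated HSC libraries thus were also highest in the sets that hold weeks 3 and 4. The week's HSC mean was above the untreated library of its set in 7 of 8 sets, week 3 being the exception. For HPC-1 this was so in 5 of 8 sets, not in those of weeks 3, 4 and 16, and for HPC-2 in 6 of the 7 that have a steady-state library.

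**Figure D3:**
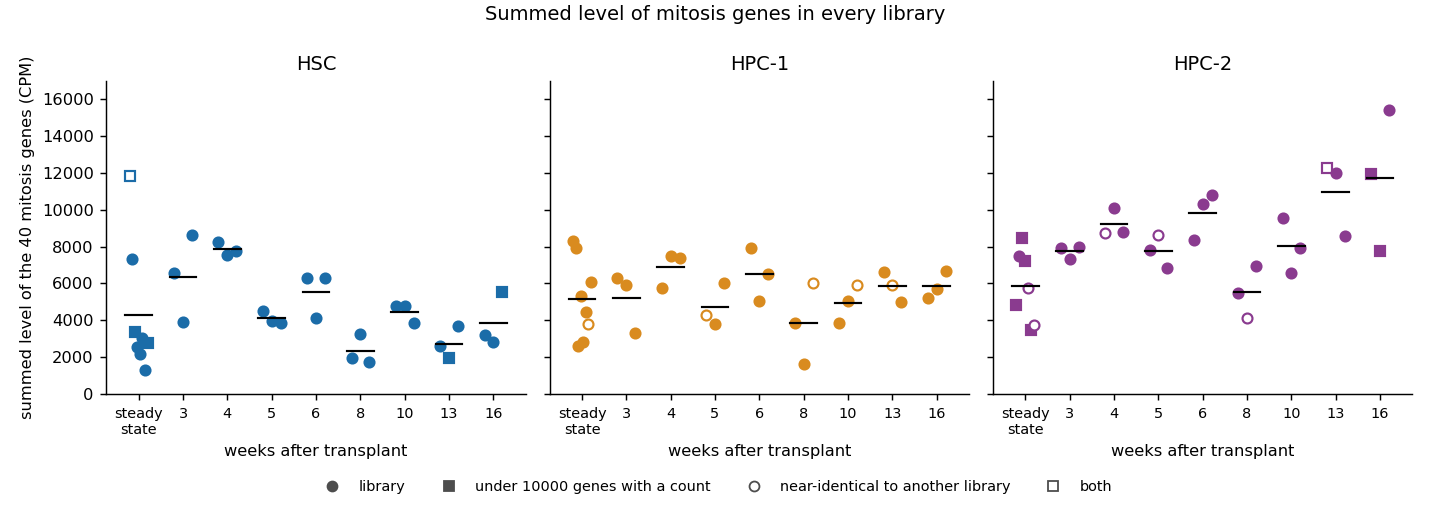
Summed level of the 40 mitosis genes in CPM (vertical axis) for every library, by population and week after transplant; bars are means of the libraries shown, squares are libraries with fewer than 10000 detected entries, open symbols are libraries near-identical to another. HSC at 3 and 4 weeks lie between 3913 and 8606 CPM and late HSC between 1935 and 5539 CPM, while late HPC-2 reach 15424 CPM.

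Across the 40 genes, 38 had their highest HSC median early, and 25 had their highest HPC-2 median late. In HPC-1, 29 were highest early. Late, the medians of 38 members followed the order HPC-2, HPC-1, HSC from high to low, against 18 at steady state and 9 early. By group means, 39 of the 40 were higher in early than in late HSC (median ratio 2.48), and 36 were higher in early HSC than at steady state (median ratio 1.61). These are descriptions of the members together; the tests follow the levels of the single genes. A median is followed by the lowest and highest library in parentheses, and the periods are always steady state, early, middle and late.

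Among the genes of mitotic entry, Ccnb1 encodes cyclin B1, the main partner of Cdk1 at entry (chr13:100778650-100786570, minus strand, GRCm38, as for all gene positions). Ccnb1 in HSC had a median of 86.1 CPM (0 to 635) at steady state, 399 (247 to 592) early, 172 (28.2 to 255) in the middle weeks and 165 (0 to 267) late. Ccnb1 medians in HPC-1 were 180 CPM (30.1 to 515), 279 (112 to 384), 147 (61.9 to 402) and 196 (120 to 488). Ccnb1 medians in HPC-2 were 181 CPM (0 to 336), 332 (231 to 439), 198 (84.7 to 576) and 505 (130 to 870). The early HSC libraries all held at least 247 CPM of the transcript, and every pair of periods overlapped in each population. Ccnb2 encodes the second B-type cyclin, found at the Golgi (chr9:70407692-70421547, minus strand). Ccnb2 in HSC had a median of 229 CPM (33 to 640) at steady state, 595 (300 to 658) early, 223 (51.2 to 555) in the middle weeks and 315 (84.9 to 595) late. Ccnb2 medians in HPC-1 were 315 CPM (84.2 to 621), 443 (271 to 629), 410 (207 to 453) and 383 (311 to 529). Ccnb2 medians in HPC-2 were 197 CPM (0 to 594), 440 (311 to 670), 586 (298 to 791) and 592 (224 to 1185). Early HSC and late HPC-2 had the highest medians, and ranges overlapped throughout. Ccna2, cyclin A, acts in S phase and up to early mitosis (chr3:36564865-36572150, minus strand). Ccna2 in HSC had a median of 45.4 CPM (0 to 342) at steady state, 268 (122 to 372) early, 100 (0 to 223) in the middle weeks and 102 (15.6 to 460) late. Ccna2 medians in HPC-1 were 97.6 CPM (18.3 to 222), 151 (55.3 to 221), 80.4 (22.5 to 226) and 142 (74.6 to 165). Ccna2 medians in HPC-2 were 165 CPM (0 to 384), 177 (152 to 283), 179 (72.1 to 303) and 251 (96.5 to 1081). Late Ccna2 was highest in HPC-2, and lowest in HSC by median. Cdk1 is the kinase that drives entry (chr10:69335146-69352938, minus strand). Cdk1 in HSC had a median of 177 CPM (94 to 735) at steady state, 438 (244 to 516) early, 289 (120 to 400) in the middle weeks and 254 (154 to 411) late. Cdk1 medians in HPC-1 were 347 CPM (145 to 466), 310 (131 to 443), 294 (0 to 348) and 361 (277 to 561). Cdk1 medians in HPC-2 were 352 CPM (0 to 659), 361 (208 to 645), 452 (296 to 674) and 583 (101 to 720). Cdk1 had its highest median early in HSC and late in HPC-1 and HPC-2, with overlapping ranges. Plk1, polo-like kinase 1, acts on centrosomes, kinetochores and Cdk1 activation (chr7:122159439-122169873, plus strand). Plk1 in HSC had a median of 18.6 CPM (0 to 249) at steady state, 35.9 (4.92 to 127) early, 17.8 (0 to 43.3) in the middle weeks and 3.26 (0 to 33.5) late. Plk1 medians in HPC-1 were 12.9 CPM (0 to 80), 42.2 (22.1 to 84.5), 16.6 (0 to 69.4) and 24 (0 to 89.8). Plk1 medians in HPC-2 were 0 CPM (0 to 98.6), 27.9 (18 to 164), 29.1 (12 to 65.6) and 98 (17 to 499). Late HSC libraries lay near 0 for Plk1 by median, and the late HPC-2 range began within the HSC range. Top2a, topoisomerase II alpha, untangles sister chromatids (chr11:98992943-99024189, minus strand). Top2a in HSC had a median of 83.2 CPM (11.1 to 526) at steady state, 176 (101 to 535) early, 98.4 (0.777 to 166) in the middle weeks and 128 (40.9 to 214) late. Top2a medians in HPC-1 were 191 CPM (68.7 to 269), 234 (107 to 372), 156 (42.5 to 409) and 170 (125 to 449). Top2a medians in HPC-2 were 165 CPM (2.79 to 730), 385 (240 to 686), 304 (125 to 466) and 551 (69.9 to 1126). The late HPC-2 median was the highest of the 12 groups. Mki67 encodes Ki-67, a coat of mitotic chromosomes and a common mark of cycling cells (chr7:135689784-135716361, minus strand). Mki67 in HSC had a median of 106 CPM (32.8 to 234) at steady state, 127 (86.6 to 355) early, 111 (28.8 to 199) in the middle weeks and 70.5 (0 to 193) late. Mki67 medians in HPC-1 were 96 CPM (32.6 to 161), 170 (28 to 195), 135 (3.44 to 194) and 161 (53.2 to 193). Mki67 medians in HPC-2 were 61 CPM (0 to 242), 293 (158 to 515), 302 (90 to 418) and 246 (0 to 381). HPC-2 had the highest Mki67 medians early, in the middle weeks and late, with overlapping ranges.

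Of the checkpoint genes, Bub1b encodes BubR1, a part of the complex that restrains Cdc20 (chr2:118598211-118641591, plus strand). Bub1b in HSC had a median of 10.2 CPM (0 to 155) at steady state, 80.7 (19.1 to 114) early, 14.6 (0 to 65.9) in the middle weeks and 5.07 (0 to 26.4) late. Bub1b medians in HPC-1 were 18.6 CPM (1.25 to 57.7), 65.3 (19.2 to 121), 30.4 (0 to 153) and 27.3 (0 to 83). Bub1b medians in HPC-2 were 18.9 CPM (0 to 91.8), 57.2 (22.3 to 291), 35.3 (0 to 178) and 28.8 (0 to 286). Bub1b was highest early in all 3 populations by median. Cdc20 activates the anaphase promoting complex (chr4:118432901-118437352, minus strand). Cdc20 in HSC had a median of 33.8 CPM (0 to 647) at steady state, 100 (49.6 to 314) early, 22.7 (0.777 to 71.8) in the middle weeks and 37.1 (0 to 85) late. Cdc20 medians in HPC-1 were 39.6 CPM (4.95 to 70.9), 52.4 (29.9 to 140), 48.2 (1.69 to 168) and 67.4 (18.6 to 87.1). Cdc20 medians in HPC-2 were 69.5 CPM (0 to 299), 86.6 (44.5 to 248), 74.1 (33.9 to 130) and 167 (30.1 to 672). The highest HSC value, at steady state, is that of the near-identical replicate 1. Ube2c is the ubiquitin-conjugating enzyme that serves the anaphase promoting complex (chr2:164769898-164778822, plus strand). Ube2c in HSC had a median of 172 CPM (86.1 to 504) at steady state, 403 (145 to 609) early, 297 (90.9 to 698) in the middle weeks and 175 (0 to 378) late. Ube2c medians in HPC-1 were 274 CPM (105 to 629), 266 (91.2 to 587), 284 (77.1 to 418) and 291 (154 to 456). Ube2c medians in HPC-2 were 214 CPM (0 to 488), 600 (241 to 988), 625 (257 to 989) and 432 (199 to 654). HPC-2 was highest early and in the middle weeks for Ube2c, and late HSC held the lowest library of the transplanted groups, at 0.

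At the kinetochore, Ndc80 encodes the microtubule-binding subunit of the outer plate (chr17:71496100-71526857, minus strand). Ndc80 in HSC had a median of 42.4 CPM (0 to 151) at steady state, 94.9 (29.4 to 231) early, 92.8 (29.6 to 220) in the middle weeks and 41.8 (0 to 133) late. Ndc80 medians in HPC-1 were 102 CPM (0.179 to 187), 106 (57.4 to 152), 105 (28.4 to 183) and 103 (52.1 to 115). Ndc80 medians in HPC-2 were 104 CPM (0 to 203), 125 (78.4 to 185), 105 (69.7 to 155) and 136 (0 to 310). Steady-state and late HSC had the lowest Ndc80 medians. Cenpf encodes a large protein of the corona (chr1:189640606-189688086, minus strand). Cenpf in HSC had a median of 20.7 CPM (0 to 203) at steady state, 29.1 (0 to 196) early, 12.3 (0 to 45.4) in the middle weeks and 13.1 (0 to 28.1) late. Cenpf medians in HPC-1 were 33.9 CPM (9.42 to 80.9), 66.4 (5.98 to 81.9), 56.9 (0.43 to 88.4) and 36.2 (0.242 to 65.2). Cenpf medians in HPC-2 were 0 CPM (0 to 61.3), 79 (44.1 to 169), 49.7 (11.8 to 73.4) and 58.4 (2.6 to 259). Cenpf was low in HSC in every period and at 0 by median in untreated HPC-2. Aurkb is the kinase of the passenger complex, which corrects faulty attachments (chr11:69045647-69051664, plus strand). Aurkb in HSC had a median of 40.4 CPM (0 to 360) at steady state, 170 (104 to 203) early, 26.4 (0 to 110) in the middle weeks and 40.9 (0 to 92.7) late. Aurkb medians in HPC-1 were 55.4 CPM (43.6 to 144), 143 (63.6 to 294), 76.8 (14.6 to 244) and 135 (40.7 to 199). Aurkb medians in HPC-2 were 209 CPM (23 to 808), 146 (82.5 to 246), 160 (26.2 to 242) and 290 (34.2 to 547). Early and late HSC did not overlap for Aurkb, the only period pair without overlap among the 18 genes listed in full. Birc5, survivin, brings the passenger complex to centromeres (chr11:117849251-117855743, plus strand). Birc5 in HSC had a median of 205 CPM (50.5 to 590) at steady state, 390 (214 to 623) early, 317 (60.2 to 555) in the middle weeks and 218 (113 to 705) late. Birc5 medians in HPC-1 were 330 CPM (133 to 548), 340 (119 to 420), 300 (62.8 to 405) and 356 (266 to 647). Birc5 medians in HPC-2 were 346 CPM (128 to 587), 498 (274 to 627), 488 (304 to 663) and 522 (274 to 799). Birc5 was among the most evenly detected members, with no library at 0.

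On the spindle, Kif11 is the motor Eg5, which pushes the poles apart (chr19:37376403-37421859, plus strand). Kif11 in HSC had a median of 57.4 CPM (5.53 to 207) at steady state, 100 (29.9 to 141) early, 29.8 (0 to 76.6) in the middle weeks and 27.5 (0 to 115) late. Kif11 medians in HPC-1 were 57.2 CPM (11 to 180), 95.6 (61.2 to 165), 69.3 (0 to 196) and 74.1 (39.8 to 158). Kif11 medians in HPC-2 were 64.3 CPM (0 to 314), 137 (84.1 to 293), 138 (72.9 to 183) and 186 (1.39 to 365). In HPC-2 the Kif11 median was higher in every transplanted period than at steady state, with overlapping ranges. Tpx2 activates Aurora A on the spindle (chr2:152847964-152895321, plus strand). Tpx2 in HSC had a median of 36.8 CPM (0.191 to 319) at steady state, 99.1 (0 to 323) early, 29.3 (0 to 106) in the middle weeks and 38.5 (0 to 70.2) late. Tpx2 medians in HPC-1 were 75.5 CPM (21.3 to 121), 66.3 (50.1 to 183), 63.2 (0 to 237) and 61.6 (26.3 to 144). Tpx2 medians in HPC-2 were 71.2 CPM (0 to 288), 120 (62.5 to 281), 107 (2.58 to 187) and 321 (67.1 to 434). Late HSC and late HPC-2 overlapped in Tpx2 only at the edge, 70.2 against 67.1 CPM. Prc1 bundles the microtubules of the central spindle (chr7:80294450-80316259, plus strand). Prc1 in HSC had a median of 26 CPM (0.22 to 681) at steady state, 212 (64.1 to 270) early, 5.75 (0 to 99.3) in the middle weeks and 27.3 (0 to 132) late. Prc1 medians in HPC-1 were 34 CPM (0 to 167), 146 (36.8 to 206), 55.6 (0 to 245) and 81.3 (36.2 to 306). Prc1 medians in HPC-2 were 61.9 CPM (0 to 174), 111 (54.9 to 239), 89.1 (41.7 to 232) and 225 (38.9 to 790). Prc1 was highest early in HSC and HPC-1 and late in HPC-2, by median. Anln, anillin, is a scaffold of the contractile ring (chr9:22332012-22389188, minus strand). Anln in HSC had a median of 7.65 CPM (0 to 59.5) at steady state, 36.6 (21.9 to 87.8) early, 14.7 (0 to 45.2) in the middle weeks and 1.77 (0 to 29) late. Anln medians in HPC-1 were 19.9 CPM (17 to 81.5), 45.6 (34.6 to 64.1), 33.3 (0 to 85.5) and 3.95 (0 to 74.4). Anln medians in HPC-2 were 16 CPM (0 to 108), 96.7 (21.5 to 138), 44.1 (0 to 81.6) and 33.6 (0 to 249). Anln was highest early in all 3 populations by median and lowest late in HSC.

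**Figure D4:**
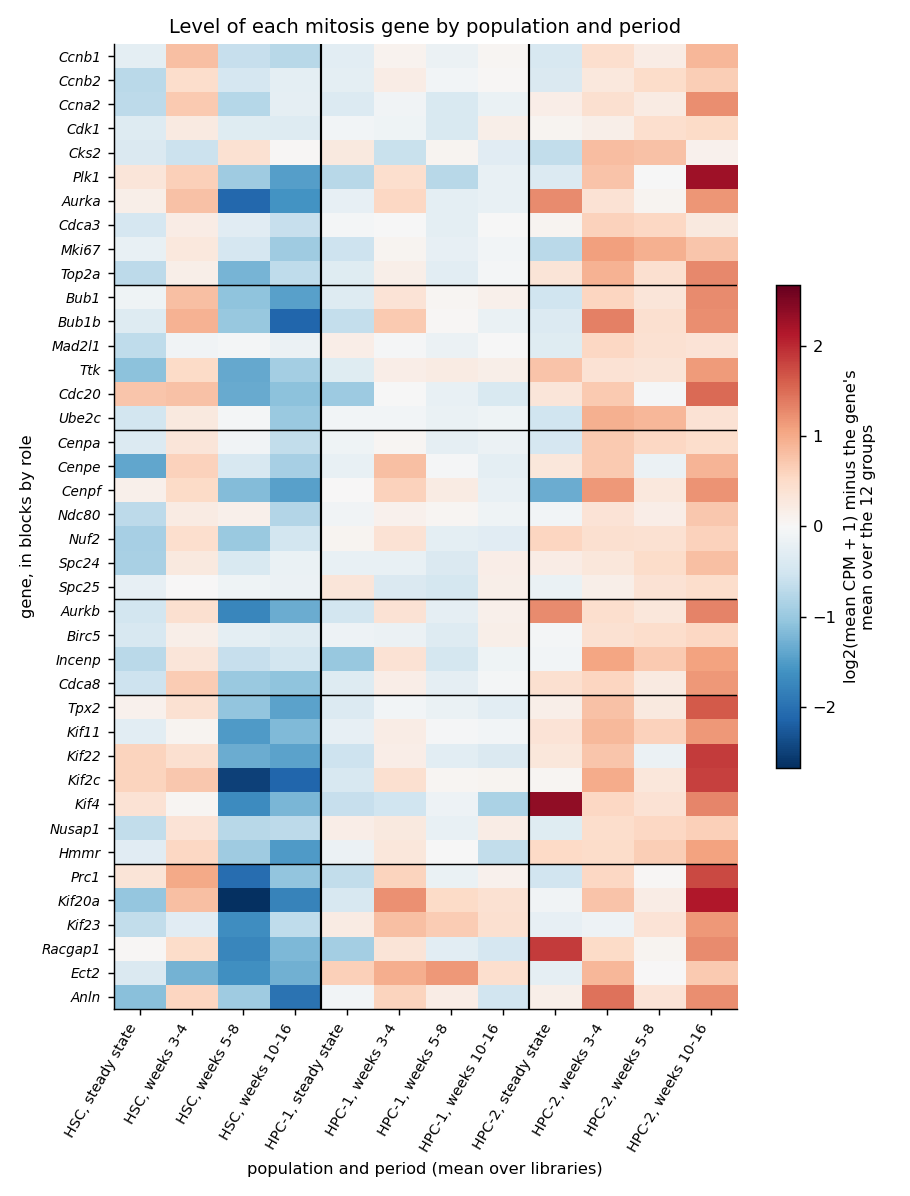
Levels of the 40 mitosis genes (rows, in order of roles) in the 12 groups of population and period (columns), as log2(mean CPM + 1) minus the gene's mean over the 12 groups. Most rows are above their mean in early HSC and late HPC-2 and below it in late HSC; Cks2 does not follow this pattern.

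The largest median difference over the members was that between late HSC and late HPC-2. Each of the tests that follow used edgeR's quasi-likelihood fit over all genes that passed a filter on low counts, and a gene is called where its Benjamini-Hochberg adjusted p over all genes is below 0.05; populations were compared in 1 fit of all 95 libraries. Between late HSC and late HPC-2, 39 of the 40 members had a fitted level lower in HSC, with a median log2 difference of -1.72 (-3.90 to 0.10) against 0.18 over all genes. Of the members 5 were called, all lower in HSC, where 9.34% of all genes were called, 2.06% of all genes as lower. At an unadjusted p below 0.05 stood 20 members, all lower in HSC, against 22.8% of all genes. DESeq2 called 25 members, all lower (11.8% of all genes in either direction), and limma voom with sample weights 4, all lower (2.53%): Top2a, Bub1, Spc24 and Cdca8.

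Top2a levels in the late HSC libraries were 160.5, 115.6 and 40.9 CPM at 10 weeks, 114.7, 143.0 and 162.4 at 13 weeks and 119.9, 128.2 and 214.0 at 16 weeks. In HPC-2 they were 323.7, 233.5 and 296.4 CPM at 10 weeks, 551.3, 583.4 and 927.2 at 13 weeks and 1126, 69.9 and 612.0 at 16 weeks. All but 1 of the HPC-2 libraries, the few-gene replicate 2 at 16 weeks, were above every HSC library. The fitted difference was -1.62 ± 0.48 (log2, SE; edgeR adjusted p = 0.0244). Cdca8 encodes borealin, the passenger subunit that binds nucleosomes with survivin (chr4:124918465-124939311, minus strand). Its levels in late HSC were 220.2, 174.9 and 137.7 CPM at 10 weeks, 65.4, 0 and 132.7 at 13 weeks and 78.0, 25.8 and 11.7 at 16 weeks. In HPC-2 the Cdca8 levels were 429.7, 292.7 and 214.7 CPM, then 486.8, 615.4 and 388.7, then 621.3, 342.8 and 639.7. The groups touched in a single library, and the difference was -1.97 ± 0.60 (edgeR adjusted p = 0.0279). Aurkb in late HSC stood at 92.7, 78.3 and 40.9 CPM, 55.7, 0 and 82.9, and 37.4, 21.9 and 1.9 at the same weeks. In HPC-2 Aurkb stood at 234.8, 81.2 and 34.2 CPM, 382.2, 290.1 and 547.0, and 202.4, 389.6 and 477.5. At 10 weeks the Aurkb values overlapped and at 13 and 16 weeks they did not; over the late weeks the difference was -2.38 ± 0.74 (edgeR adjusted p = 0.0292).

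Kif22 encodes Kid, a motor that pushes chromosome arms away from the poles (chr7:127027729-127042471, minus strand). In late HSC Kif22 was at 57.5, 37.9 and 63.0 CPM, 26.0, 0 and 1.3, and 11.6, 3.5 and 0.2. In HPC-2 it was at 149.3, 13.3 and 33.7 CPM, 605.6, 204.1 and 266.0, and 0, 194.7 and 588.3. The groups overlapped at 10 weeks and through an HPC-2 library at 0, and the difference was -3.07 ± 1.03 (edgeR adjusted p = 0.0441). Bub1 is the checkpoint kinase that recruits the other checkpoint proteins to kinetochores (chr2:127801122-127831865, minus strand). Bub1 in late HSC was at 36.3, 33.6 and 11.8 CPM, 27.6, 0 and 36.1, and 21.8, 0 and 68.6, and in HPC-2 at 75.7, 109.1 and 122.9, 164.4, 407.8 and 205.1, and 146.1, 90.9 and 256.8. These groups did not overlap, and the difference was -2.40 ± 0.82 (edgeR adjusted p = 0.0484). By role the median differences were -1.18 over the 10 entry genes (1 called), -2.06 over the 6 checkpoint genes (1 called), -0.94 over the 7 kinetochore genes (0 called), -1.67 over the 4 passenger genes (2 called), -2.29 over the 7 spindle genes (1 called) and -2.32 over the 6 cytokinesis genes (0 called). Cks2, a small subunit of Cdk complexes, was the 1 member not lower in late HSC, at 0.10.

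Without the near-identical libraries 3 of these genes were called, Top2a, Cdca8 and Aurkb (1.77% of all genes called lower). Without the few-gene libraries all 40 differences were below 0 and 3 members were called, Top2a (-1.90), Bub1 (-2.91) and Mki67 (-1.54), where 0.67% of all genes were called lower. With neither kind of library the same 3 were called at -1.93 (edgeR adjusted p = 0.0196), -2.93 (0.0344) and -1.56 (0.049), with 0.453% of all genes called lower. Leaving out 1 library at a time gave 1 to 9 called members, where 2.06% of all genes were called lower with all libraries in the fit. The shares of all genes with 1 library left out are not given here. The count of called members was 1 without HPC-2 13 weeks replicate 3 and 9 without HPC-2 10 weeks replicate 2. The call of Top2a was lost in 1 of these 18 fits, that of Cdca8 in 2, that of Aurkb in 3 and those of Kif22 and Bub1 in 12 each. With only these 2 groups in the fit no member was called by edgeR (smallest adjusted p = 0.144), where 10 of 9142 genes were called, while 39 differences stayed below 0 with a median of -1.78 and 20 members had an unadjusted p below 0.05. With the replicate number as a block edgeR called no member either, and 39 differences were below 0. Scaling by DESeq2's size factors within edgeR moved the median of all genes from 0.18 to -0.27 and the members' median to -2.36. With it 19 members were called, all lower, while 570 of the 14717 genes were called lower, against 303 with edgeR's own scaling. Relative to all genes the members' medians were -1.90 with edgeR's own scaling and -2.10 with the size factors. In promoter terms, the 26 members with TTTGAA had a median difference of -2.03, with 26 of 26 below 0, and the 8 without it -1.02, with 7 of 8 below 0. The split varied between comparisons. In late HSC against late HPC-1 the medians were -0.93 with TTTGAA and -0.51 without it. In untreated HSC against HPC-1 they were -0.34 and -0.86, and in early against untreated HSC 0.68 and 1.01. Whether these 2 sets of members differ was not tested. Marker lists also moved between late HSC and late HPC-2. The summed level of the 8 erythroid markers had a median of 60.3 CPM (12.5 to 2769) in late HSC, with Alas2 at 0 throughout. In late HPC-2 it was 1830 CPM (99.6 to 5048), with all 8 detected. The 9 stem cell markers summed to a median of 916 CPM (512 to 1312) in late HSC and 500 CPM (199 to 1140) in late HPC-2, where Procr and Fgd5 were at 0. Their part in the difference was not tested.

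**Figure D5:**
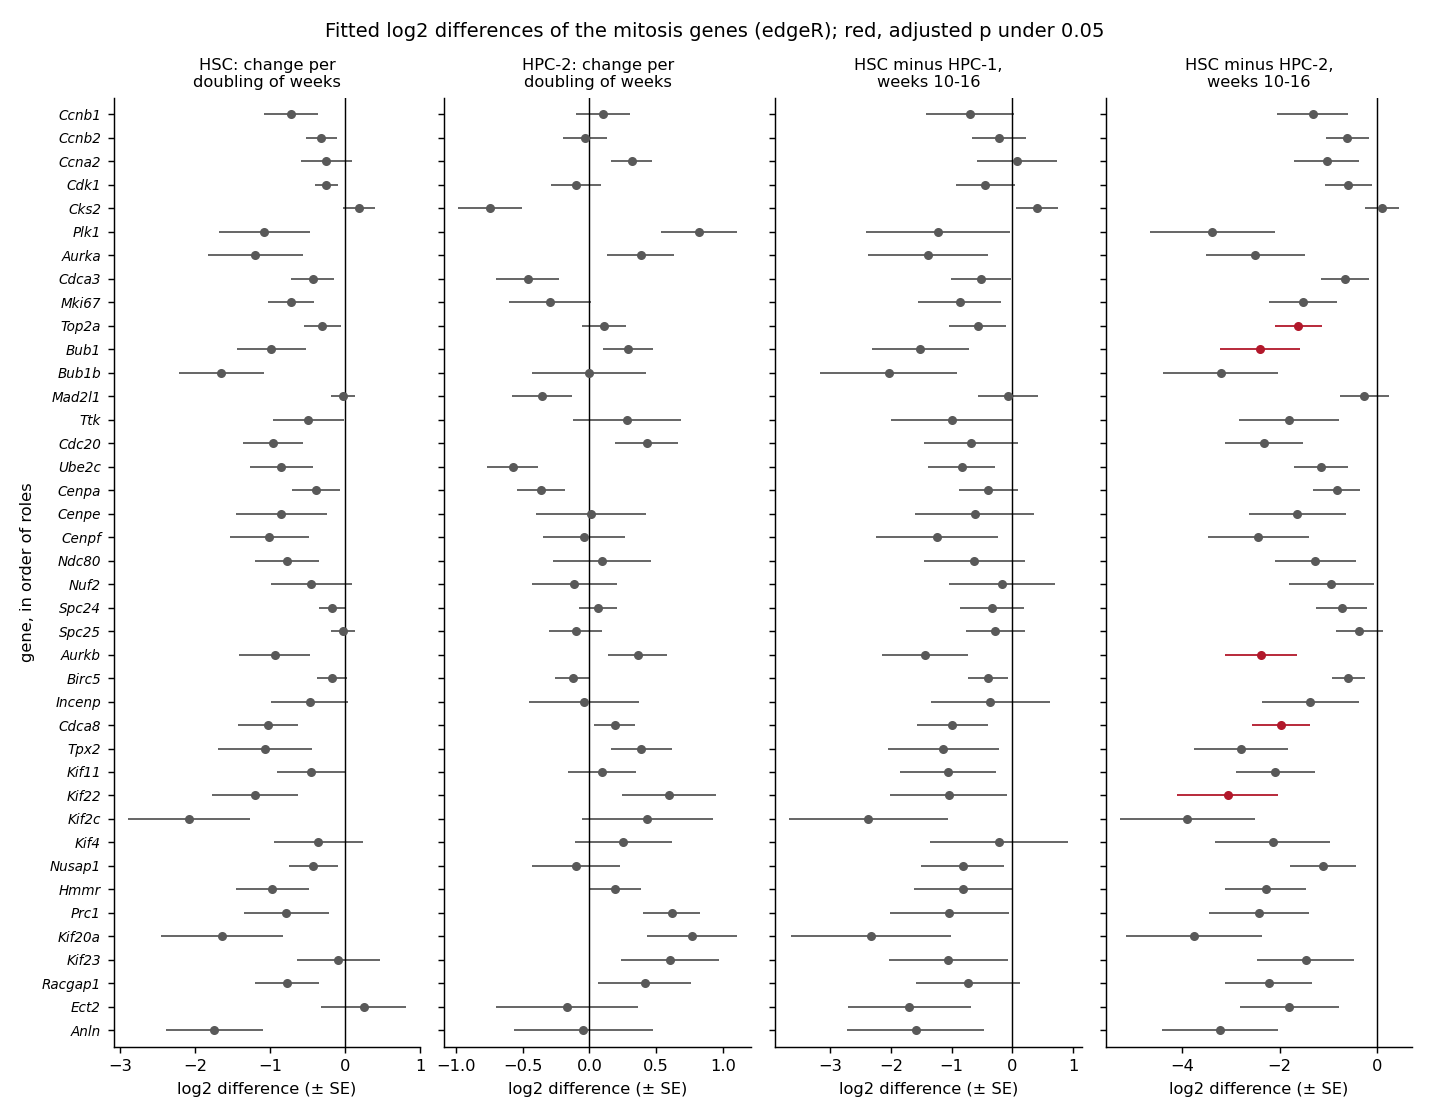
Fitted log2 differences of the 40 mitosis genes (points, with standard errors as bars; horizontal scales differ) for the change per doubling of weeks in HSC and HPC-2 and for late HSC minus late HPC-1 and late HPC-2; red marks an adjusted p below 0.05. In the HSC and HPC-2 panel 39 of 40 points lie below 0 and 5 are red, and in the other panels none is red.

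Late HSC against late HPC-1 gave differences of the same sign for most members, with a median closer to 0. Here 38 of the 40 fitted differences were below 0, with a median of -0.82 against -0.05 over all genes. None of the members was called by edgeR (3% of all genes were), by DESeq2 (3.44%) or by voom (4.77%), and 1 had an unadjusted p below 0.05, against 12.6% of all genes. The members with the smallest p were Aurkb at -1.44 ± 0.71 (edgeR adjusted p = 0.384), Bub1 at -1.52 ± 0.80 and Kif2c, a microtubule depolymerase at centromeres, at -2.37 ± 1.31. Medians by role were -0.54 for entry, -0.92 for the checkpoint, -0.40 for the kinetochore, -0.70 for the passenger complex, -1.05 for the spindle and -1.32 for cytokinesis. Whether the difference from HPC-1 was smaller than that from HPC-2 was not tested.

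At steady state edgeR called none of these genes between the 3 populations with all libraries in the fit. HSC were lower than HPC-1 in 27 of 40 members, with a median of -0.45 against 0.00 over all genes. Without HSC replicate 1, the library near-identical to an HPC-2 library, 38 of 40 were lower and the median was -0.77. No member was called by edgeR (2.07% of all genes were) or DESeq2 (2.92%), 1 had an unadjusted p below 0.05 (10.8% of all genes), and voom called 3 as lower in HSC, Spc24, Cks2 and Mad2l1 (9.53%). Cks2 was at -0.78 ± 0.37 (edgeR adjusted p = 0.396), the checkpoint protein gene Mad2l1 at -0.96 ± 0.53 and Cdc20 at 1.50 ± 0.83. Without the few-gene libraries edgeR called Spc24 as lower in HSC than in HPC-1 (-1.27, adjusted p = 0.0255). Against HPC-2, untreated HSC were lower in 26 of 40 members, with a median of -0.36 while the median over all genes was 0.40. None was called by edgeR (8.66%) or DESeq2 (11.1%), 1 had an unadjusted p below 0.05 (23.2%), and voom called Spc24 as lower (5.27%). Aurkb was at -1.62 ± 0.78 (edgeR adjusted p = 0.189), Spc24, which joins the Ndc80 complex to the inner kinetochore, at -1.10 ± 0.58, and Racgap1, a subunit of centralspindlin, at -1.72 ± 0.95. Without the near-identical libraries, HSC replicate 1 among them, 6 members were called lower in HSC: Top2a (-1.91), Aurkb (-2.74), Spc24 (-1.88), Racgap1 (-2.99), Kif4 (-4.07) and Ttk (-3.43), with 2.66% of all genes called lower. All but 1 of the untreated HPC-2 libraries left in that fit were few-gene libraries. When the few-gene libraries were left out instead, no member was called. Leaving out HSC replicate 1 alone gave 3 called members, Spc24, Top2a and Aurkb, and a median of -0.88. With all libraries in the fit, 1.77% of all genes were called lower. The share without HSC replicate 1 is not given here, so the 3 calls cannot be set against it.

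Between untreated HPC-1 and HPC-2, 17 of 40 members were higher in HPC-1, with a median of -0.15 against 0.46 over all genes. The direction turned on 1 library: without HPC-2 replicate 2 the median was 0.19, with 26 of 40 above 0. That replicate is the only untreated HPC-2 library that is neither few-gene nor near-identical to another. Neither edgeR (0.741% of all genes called) nor voom (3.47%) called a member, 3 had an unadjusted p below 0.05 (20.7%), and DESeq2 called Racgap1 as lower in HPC-1 (9.32%). Cks2 was at 1.18 ± 0.39 (edgeR adjusted p = 0.0591), Racgap1 at -2.40 ± 0.97 (0.121) and the chromokinesin Kif4 at -2.64 ± 1.29 (0.225). Without the near-identical libraries edgeR called Cks2 as higher in HPC-1 (1.42, adjusted p = 0.025). Early after transplant, the members' medians between HSC and the progenitors were within 0.20 of 0. Against HPC-1, 29 of the 40 members were higher in early HSC, with a median of 0.20 against -0.06 over all genes. None was called by edgeR (0.367%), DESeq2 (2.94%) or voom (8.92%), and 0 had an unadjusted p below 0.05 (9.57% of all genes). Ect2, the exchange factor that activates RhoA in cytokinesis, was at -2.28 ± 1.26 (edgeR adjusted p = 0.657), Ccna2 at 0.77 ± 0.81 and the centralspindlin motor Kif23 at -1.14 ± 1.21. Against HPC-2, 12 of 40 were higher in early HSC, with a median of -0.19 against -0.04. No member was called by edgeR (0% of all genes) or voom (3.7%), 1 had an unadjusted p below 0.05 (9.59%), and DESeq2 called Cks2 as lower in HSC (2.59%). Cks2 was at -1.50 ± 0.43 (edgeR adjusted p = 0.236), Ect2 at -2.19 ± 1.26 and Top2a at -0.80 ± 0.58.

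Early HSC had more mitosis gene transcript than untreated HSC by most members, without a call. The fitted differences were above 0 for 36 of the 40 genes, with a median of 0.80 (-0.86 to 2.08) against -0.03 over all genes. By edgeR 0 members were called (0.0319% of all genes), and 1 had an unadjusted p below 0.05 (8.01%). DESeq2 called 0 (1.57%), and voom called 12, all higher early (4.54%): Cdk1, Spc24, Ttk, Ccnb2, Birc5, Mad2l1, Cdca3, Cenpa, Nusap1, Cdca8, Prc1 and Spc25. Ccnb2 was at 1.18 ± 0.49 (edgeR adjusted p = 0.445), Mad2l1 at 0.60 ± 0.35 and Cdk1 at 0.66 ± 0.39. By role the medians were 0.71, 0.89, 0.87, 1.12, 0.32 and 0.70 from entry to cytokinesis in the order given above, with 9 of 10, 6 of 6, 7 of 7, 4 of 4, 5 of 7 and 5 of 6 above 0. Without the near-identical libraries the median was 1.38, and without the few-gene libraries 1.14, with 38 of 40 above 0 each. With the numbering set as a term it was -0.29, with 13 of 40 above 0, while the median over all genes was 0.37; the steady-state libraries of those sets were the highest of the untreated HSC. The direction of the early difference therefore turned with this term. That fit compares early HSC only with the single untreated library of each of these sets, at summed levels of 11843 and 7349 CPM. The first is replicate 1, the few-gene library near-identical to an HPC-2 library. Other measures moved with the early HSC libraries. The 3 of week 3 are those nearer to HPC-2 in profile, and without them the median was 1.02, with 35 of 40 above 0. The 9 stem cell markers summed to a median of 851 CPM (437 to 1123) early and 1330.5 CPM (617 to 1568) untreated, with all 9 detected in both; among them Procr had medians of 30.3 and 114 CPM. The 6 markers of multipotent and lymphoid-primed progenitors summed to 759 CPM (447 to 934) early and 327 CPM (105 to 668) untreated, with Il7r at 0 in both. The 4 megakaryocyte markers summed to 1362 CPM (805 to 1880) and 428 CPM (291 to 1325). Mitochondrial genes took 0.294 to 0.826% of the counts in early HSC and 0.793 to 3.18% in untreated HSC. The part of these in the early difference was not tested. The 8 untreated HSC libraries also serve the late comparison that follows.

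Late HSC did not differ from untreated HSC in a common direction. Of the 40 members 15 were higher late, with a median of -0.40 against -0.05 over all genes. None was called by edgeR (0%), DESeq2 (0.207%) or voom (0.263%), and 0 had an unadjusted p below 0.05, against 3.36% of all genes. Mad2l1 was at 0.59 ± 0.32, Cdc20 at -1.71 ± 0.94 and Kif2c at -2.75 ± 1.63, each with an edgeR adjusted p of 1.00. Without HSC steady state replicate 1 the median was 0.07, and with the numbering set as a term 1.48, with 35 of 40 above 0. With that term, libraries of a period are compared only with the single untreated libraries of their own numbering sets, here and below. In HPC-1, 31 of 40 members were higher early than untreated (median 0.35 against 0.03), none called by edgeR (0.0162%) or DESeq2 (1.7%) and 1 with an unadjusted p below 0.05 (11.2%). Here too the direction turned with the numbering set as a term, to a median of -0.40 with 12 of 40 above 0. The summed level of the week's HPC-1 libraries was 5190 CPM against 8316 CPM in the untreated library of the set at week 3, and 6864 against 7943 CPM at week 4. With this term, early HPC-1 are compared only with these single untreated libraries. Voom called Cks2 as lower (-0.90, adjusted p = 0.0366) and the cytokinesis motor Kif20a as higher (3.39, adjusted p = 0.0499), where 6.99% of all genes were called. By edgeR Cks2 was at -1.01 ± 0.36 (adjusted p = 0.271), Incenp, the scaffold of the passenger complex, at 1.30 ± 0.66, and Aurkb at 0.78 ± 0.47. Late HPC-1 were higher than untreated in 23 of 40 (median 0.12 against 0.00), with no call by edgeR (0%), DESeq2 (0.0809%) or voom (0.324%). Without the near-identical libraries the late HPC-1 median was -0.09, with 19 above 0, and with the numbering set as a term 0.33, with 28 above 0. The 1 member with an unadjusted p below 0.05 (4.42% of all genes) was Cks2 at -0.71 ± 0.32, followed by Mad2l1 at -0.31 ± 0.21 and Incenp at 0.86 ± 0.60.

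HPC-2 had more of these transcripts after transplant than at steady state by most members. Early, 34 of 40 were higher (median 0.69 against 0.29 over all genes), with 0 called by edgeR (0%) and 3 at an unadjusted p below 0.05 (5.82%). DESeq2 called Cks2 as higher (1.26, adjusted p = 0.0296; 1.41% of all genes) and voom called no member (0.00841%). In the edgeR fit Cks2 was at 1.67 ± 0.46 (adjusted p = 0.138), Ube2c at 1.61 ± 0.67 and Cenpf at 2.54 ± 1.24. Late, 38 of 40 were higher (median 0.89 against 0.12 over all genes), by role 0.92, 0.96, 0.65, 0.66, 0.90 and 1.10. No member was called by edgeR (0%), DESeq2 (2.06%) or voom (0%), and 2 had an unadjusted p below 0.05 (7.16%). Prc1 was at 2.15 ± 0.88 (edgeR adjusted p = 0.413), with levels of 61.9 CPM (0 to 174) untreated and 225 CPM (38.9 to 790) late. Cenpf was at 2.47 ± 1.18 and Birc5 at 0.59 ± 0.30. The untreated HPC-2 libraries serve both comparisons; 4 of the 7 are few-gene libraries, and replicates 5 and 7 are near-identical to HPC-1 libraries. Without either kind, 1 untreated library was left, and the medians were 0.02 early (21 of 40 above 0, all genes 0.56) and 0.47 late (32 of 40, all genes 0.35). With the numbering set as a term, edgeR called 21 members higher early, with a median of 12.43, where 17.5% of all genes were called higher and their median was 9.11. That fit compares the early libraries with 1 untreated library of 3827 detected entries, as the set of week 4 has none. Late, it called 1 member, Plk1 (0.0168% of all genes higher), with a median of 1.59 and 40 of 40 above 0.

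Along the weeks, most members had fitted changes below 0 in HSC, but not relative to untreated libraries of the same numbering set. Per doubling of the weeks after transplant, 38 of the 40 fitted changes were below 0, with a median of -0.72 (-2.08 to 0.25) against -0.04 over all genes. None was called by edgeR (0.00869% of all genes), and 8 had an unadjusted p below 0.05 (10.6%). DESeq2 called Cdca8 as falling (-1.14, adjusted p = 0.0451; 2.05% of all genes), and voom called Ccnb1 (-1.29, adjusted p = 0.0418) and Bub1b (-2.07, adjusted p = 0.0495; 0.878%). Bub1b in HSC was at 107, 58.7 and 114 CPM at 3 weeks, 103, 19.1 and 41.6 at 4 weeks and 25.9, 14.6 and 20.3 at 5 weeks. It was at 0.851, 3.92 and 14.5 CPM at 6 weeks, 19.6, 0 and 65.9 at 8 weeks and 26.4, 18.5 and 3.44 at 10 weeks. At 13 weeks it was at 0, 0 and 14.1 CPM, and at 16 weeks at 5.35, 5.07 and 0. The 4 highest values were at weeks 3, 4 and 8, and libraries at 5, 8 and 10 weeks also lay within the range of weeks 3 and 4. Its change per doubling was -1.65 ± 0.56 (edgeR adjusted p = 0.316), that of Anln -1.74 ± 0.64 and that of Cdca8 -1.03 ± 0.40. By role the median changes were -0.37, -0.90, -0.45, -0.70, -0.97 and -0.78, with 9 of 10, 6 of 6, 7 of 7, 4 of 4, 7 of 7 and 5 of 6 below 0.

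In a fit of all HSC libraries that measured each week against the untreated library of its own numbering set, the sign of this change turned. There 34 of 40 members were above 0, with a median of 0.88 against -0.13 over all genes, 0 called and 5 at an unadjusted p below 0.05. Without the near-identical libraries, which removes the untreated HSC library of the first set, 30 of 40 were above 0 with a median of 0.75. The early peak of the HSC levels and the place of weeks 3 and 4 in the first numbering sets cannot be told apart in the transplanted libraries. In HPC-1 the change per doubling was above 0 for 9 of 40 members (median -0.11 against -0.01), with 0 called by edgeR (0.0435%), DESeq2 (0.244%) or voom (1.46%) and 0 at an unadjusted p below 0.05 (3.98%). Birc5 was at 0.26 ± 0.14, Spc24 at 0.26 ± 0.14 and the kinetochore motor Cenpe at -0.50 ± 0.34 (edgeR adjusted p = 1.00 each). In HPC-2 it was above 0 for 23 of 40 (median 0.10 against -0.15), with 0 called by edgeR (0.0178%), DESeq2 (0.952%) or voom (0%) and 6 at an unadjusted p below 0.05 (8.97%), 4 above 0 and 2 below. Cks2 was at -0.74 ± 0.24, Ube2c at -0.57 ± 0.19 and Plk1 at 0.82 ± 0.28 (edgeR adjusted p = 0.356, 0.356 and 0.36).

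In its early change 1 member, Cks2, was called between HSC and HPC-2, and this call was lost in most alternatives. In untreated HSC it was at 115 to 393 CPM (median 237) and in early HSC at 140.6, 160.4 and 131.8 CPM at 3 weeks and 187.8, 252.8 and 322.3 at 4 weeks. In untreated HPC-2 it was at 122 to 246 CPM (median 197), and early at 607.6, 511.4 and 140.6 CPM at 3 weeks and 653.4, 1033 and 249.8 at 4 weeks. Early HSC values lay within the untreated HSC range, whereas 5 of the 6 early HPC-2 values lay above the untreated HPC-2 range. The difference of the changes, HSC minus HPC-2, was -1.90 ± 0.58 (edgeR adjusted p = 0.0470), where 3.09% of all genes were called and 2.85% as lower; 1 of 40 members is no larger a share. DESeq2 called Cks2 too (-1.27, adjusted p = 0.0199; 5.48% of all genes), voom called no member (3.2%), and 1 member had an unadjusted p below 0.05 (15.9%). The call was lost in 22 of 37 alternatives. Without the few-gene libraries Cks2 was at -1.23 (adjusted p = 0.432), and with only the groups compared at -1.84 (0.296). It was also lost without the filter (0.0717), with a replicate block (0.239) and without the HSC libraries nearer to HPC-2, and in 15 of 27 fits that left out 1 library, with an adjusted p up to 0.151 without HPC-2 4 weeks replicate 2. Over the 40 members 21 differences were above 0, with a median of 0.07 against -0.49 over all genes. The corresponding difference between HSC and HPC-1 was above 0 for 27 members (median 0.54 against -0.09), with 0 called by edgeR (0%) or DESeq2 (1.66%), 0 at an unadjusted p below 0.05 (5.65%), and Spc24 called by voom (1.96, adjusted p = 0.0181; 1.64%). Spc24 was at 1.40 ± 0.85, Birc5 at 0.78 ± 0.54 and Cks2 at 0.77 ± 0.56 in edgeR.

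Across libraries of 1 population the members varied together to a moderate degree, as a description over libraries that share depth and detection. The median Spearman rho over all pairs of members was 0.469 over the 32 HSC libraries, 0.463 over the 32 of HPC-1 and 0.287 over the 31 of HPC-2. Measured against the mean of the other members, Aurkb (0.887), Cdca8 (0.852) and Racgap1 (0.813) were closest in HSC, Aurka (0.877), Kif11 (0.863) and Ccnb1 (0.853) in HPC-1, and Bub1b (0.772), Cenpf (0.759) and Kif2c (0.722) in HPC-2. Cks2 had the lowest rho in HSC (-0.27) and HPC-1 (-0.53) and was at 0.07 in HPC-2. In HPC-2 Mad2l1 was lowest, at -0.08, and Spc25, the partner of Spc24, was at 0.04.

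Genes of related processes, taken from lists that do not overlap the members, were tested in the same fits. These lists too were chosen with earlier results of these data known. Of 48 further mitosis genes, 2 were called between late HSC and late HPC-2, both lower in HSC: Cit, citron kinase of the midbody (-3.60 ± 1.05, edgeR adjusted p = 0.0222), and Nek2, a centrosome kinase (adjusted p = 0.0244), where 2.06% of all genes were called lower. Pttg1, securin, was called higher in HSC than in HPC-2 at steady state (1.68, adjusted p = 0.0498; 6.88% of all genes called higher), at 275 CPM (192 to 498) and 74.2 CPM (0 to 190.0). Of these 48, 45 had fitted differences below 0 between late HSC and late HPC-2, with a median of -1.45. In early against untreated HSC 36 of the 48 were above 0 (median 0.63, 0 called), and per doubling of weeks in HSC 40 of the 47 tested were below 0 (median -0.56, 0 called). Of 27 DNA replication genes, 5 were called lower in late HSC than in late HPC-2, the replicative helicase genes Mcm5 (-3.02, edgeR adjusted p = 0.00806), Mcm3 (-2.40, 0.0121) and Mcm6 (-1.61, 0.0284) among them, with a list median of -0.88 and 2.06% of all genes called lower. At steady state 7 were called lower in HSC than in HPC-2, the thymidylate synthase gene Tyms (-1.27), Mcm7 (-1.75) and Mcm4 (-2.13) among them (1.77% of all genes called lower), and 2 lower than in HPC-1, the licensing inhibitor gene Gmnn (-1.26) and Tyms (-1.23), where 1.26% of all genes were called lower. In early against untreated HSC 26 of the 27 were above 0 (median 0.84, 0 called, 8 at an unadjusted p below 0.05), and in early against untreated HPC-2 11 were (median -0.18, 0 called). Of 8 condensin subunit genes none was called in the late comparison (7 below 0, median -0.93), and Ncapd3 was called lower in HSC than HPC-2 at steady state (-2.14, adjusted p = 0.0378). Of 16 transcriptional regulators of mitosis genes, E2f2 was called lower in late HSC than in late HPC-1 (adjusted p = 0.0399; 1.67% of all genes lower) and HPC-2 (adjusted p = 0.0191), with a count in 1 of 9 late HSC, 7 of 9 late HPC-1 and 4 of 9 late HPC-2 libraries. Tfdp1, the E2F partner DP1, was called lower in untreated HSC than HPC-2 (-0.98, adjusted p = 0.0481), and its early change was called higher in HSC than in HPC-2 (1.78, adjusted p = 0.0316; 0.245% of all genes called higher). Tfdp1 was at 178 CPM (68.0 to 298) in untreated and 546 CPM (355 to 652) in early HSC, ranges that did not overlap, and at 292 CPM (53.1 to 845) and 235 CPM (127 to 540) in HPC-2. Of 11 quiescence genes, 10 were tested in HSC, and 0 of these were above their untreated level early (median -1.09, 0 called, 2 at an unadjusted p below 0.05). Ndn, necdin, was called higher in late HSC than in late HPC-1 (adjusted p = 0.00357; 1.33% of all genes called higher) and late HPC-2 (adjusted p = 0.00729; 7.28%). Ndn was at 10.4 CPM (0 to 144) in late HSC, with a count in 8 of 9 libraries, against 0 of 9 in late HPC-1 and 1 of 9 in late HPC-2.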

How the data were processed

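RNA of sorted HSC, HPC-1 and HPC-2 was amplified with SMART-Seq v4 and made into Nextera XT libraries, per the labels' protocols. The authors deposited whole-number counts per gene entry for 95 libraries. Trimmomatic 0.36, HISAT2 2.0.5, Picard and featureCounts, with the build GRCm38 (mm10), are named without parameters in the submitters' processing notes, and featureCounts without its strand setting. Amplified reads carry no molecular identifiers in these counts, so depth covers counting error only. Samples were grouped by title; 1 HPC-2 library of week 3 has an untreated label and followed its title, and 2 titles that read 10k were taken as week 10. Entries without a symbol (3433) have an Ensembl identifier and stayed in library sizes and tests.

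From the counts, CPM (of a library's total count) and edgeR 4.0.16 quasi-likelihood tests (filterByExpr, TMM, Benjamini-Hochberg adjustment over all genes tested, called below 0.05) were computed in R 4.3.3: within a population between periods, within transplanted libraries along log2 weeks, and between populations within periods. DESeq2 1.42.0, limma 3.58.1 voom with sample weights, other scaling, no filter, replicate and numbering-set terms and libraries left out were the alternatives; voom, leaving out both kinds of library together and the slope relative to untreated libraries of the same numbering set were added after the data were seen. Scripts were tested on simulated data, where edgeR's false calls between populations were of genes at low levels, so adjusted p-values of low members may be too small. The members and gene lists were chosen with earlier results of these data known. Levels in every group are given for 18 genes that represent the roles; in each comparison the called members with the smallest p (up to 8), or the 3 with the smallest p where none was called, are named. Promoters are RefSeq sequences.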

Additional observations from a re-analysis of the deposited data

Results flagged for a closer look

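In groups of 4 to 10 libraries, a library was marked where its gap to the nearest other library was a large share of the group's range by Dixon's limits. Of 57 groups of values tested 14 were marked, all of them groups of steady-state libraries. Groups of a single week were too small for this rule. Its nominal rate of about 1 in 20 groups holds for independent, normally distributed values. The CPM values are skewed, and the genes were measured in the same libraries, so the count of marks cannot be set against that rate.

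HSC steady state replicate 1, the few-gene library near-identical to an HPC-2 library, stood above the other 7 untreated HSC for 8 genes: Plk1 (248.9 CPM), Top2a (526.5), Bub1b (155.4), Cdc20 (647), Cenpf (202.8), Aurkb (359.6), Kif11 (206.9) and Prc1 (681.3). Of the other untreated HSC, replicate 2 stood high for Ccnb2 (640 CPM) and replicate 7 for Anln (59.47 CPM). HPC-1 steady state replicate 1 stood high for Ccnb1 (515 CPM), Plk1 (80.03) and Anln (81.5). HPC-2 steady state replicate 4, a few-gene library, stood high for Cenpf (61.31 CPM).

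Cks2 was marked because its change from steady state to weeks 3 and 4 differed between HSC and HPC-2 in the edgeR test of that difference, at -1.90 on the log2 scale. This call was lost in 22 of 37 alternatives.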

How the results depend on the processing

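Of 504 values of called-member counts under an alternative, 444 were within 1.5 times the count in use, which includes counts of 0 that stayed at 0. For single named genes 1379 kept direction and side of the threshold, uncalled genes that stayed uncalled included. A further 74 lost and 22 gained a call, and 14 turned in sign. Of the called genes, Top2a lost its call in 3 of 27 alternatives, Cdca8 in 6, Aurkb in 8, Bub1 in 16 and Kif22 in 19, and Cks2 in 22 of 37. The causes were not tested. For late HSC against late HPC-2 (5 called), DESeq2 called 25, edgeR with size-factor (RLE) scaling 19, edgeR without the low-count filter 3, without few-gene libraries 3, without near-identical libraries 3, without both 3 and with only the groups compared 0, and leaving out 1 library gave 1 to 9. The difference in early change between HSC and HPC-2 (1 called, Cks2) had 0 without the filter, with voom, without few-gene libraries, without both kinds, without the HSC libraries nearer to HPC-2 and with only the groups compared, and 0 to 1 with 1 library left out. With the replicate number as a block, each of these comparisons had 0 called. The other comparisons have 0 called. Voom called 12 for early against untreated HSC, 2 for early HPC-1, 2 for the HSC change per doubling, 3 for untreated HSC against HPC-1, 1 for untreated HSC against HPC-2 and 1 for the difference in early change between HSC and HPC-1. DESeq2 called 1 each for early HPC-2, the HSC change per doubling, untreated HPC-1 against HPC-2 and early HSC against HPC-2. Without few-gene libraries 1, Spc24, was called in untreated HSC against HPC-1. The share of all genes called is not given here for that fit. Nor is it given for fits without the filter or for untreated HPC-1 against HPC-2 without near-identical libraries. Without near-identical libraries 6 were called in untreated HSC against HPC-2 and 1 in untreated HPC-1 against HPC-2; leaving out 1 library gave 0 to 3 and 0 to 1 there. With the numbering set as a term, early HPC-2 had 21 calls, which rest on 1 untreated library of 3827 detected entries, and late HPC-2 had 1.

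Signs turned for Cdk1 in early HSC with the numbering set (-0.62), Kif2c in late HSC with it (1.73) and Cdc20 in late HSC with voom (0.18). Relative to untreated libraries of the same numbering set, without and with near-identical libraries removed, they turned for the slopes of Bub1b (1.44 and 1.44) and Cdca8 (0.62 and 0.51) in HSC and of Cenpe (1.10 and 1.08) in HPC-1. For Kif4 in untreated HPC-1 against HPC-2 they turned with voom (1.94), without few-gene libraries (1.41) and without both kinds (9.80). RLE scaling moved the higher share of calls from 78.0% to 58.8% in late HSC against HPC-2 and from 63.3% to 49.3% in untreated HPC-1 against HPC-2, whose all-gene median it moved by -0.43.

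The transplanted HPC-1, HPC-2 and HSC libraries of 1 week and replicate number have consecutive running numbers in the labels. Whether such libraries came from 1 mouse is not given, so whether replicate numbers pair the samples cannot be told. Of HSC and HPC-1 libraries with the same replicate number, 6 of 8 untreated and 2 of 24 transplanted pairs had correlated deviations above 0.1. For HSC and HPC-2 these were 2 of 7 and 5 of 24, and for HPC-1 and HPC-2 1 of 7 and 9 of 24. Untreated HPC-2 has no library in the set of week 4, so its later replicate numbers fall in other sets than those of HSC and HPC-1. With the replicate number as a block, late HSC against late HPC-2 had 0 called (39 below 0, 19 at an unadjusted p below 0.05), the difference in early change between HSC and HPC-2 had 0, and signs turned for Cdk1 in early HSC (-0.075) and Kif4 in untreated HPC-1 against HPC-2 (0.95). Detection limits the low genes: the 12 few-gene libraries detected 10 to 38 of the 40 members.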
